A study of Homo sapiens with 6 samples.

Results

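The genes described here are 10 factors of endoplasmic reticulum (ER)-associated degradation, abbreviated ERAD: EDEM1, EDEM2, EDEM3, OS9, SEL1L, SYVN1, HERPUD1, DERL1, DERL2 and DERL3. They were chosen by name, and each matched 1 of the 26391 rows of the gene table. RNA came from HEK293T, an established line of human embryonic kidney origin with the SV40 large T antigen. The cells were transfected at 50% confluency and lysed 48 hours later. One group of 3 libraries received 4 pooled siRNAs against LOC550643, and the other group of 3 received a human non-silencing siRNA, called control here. LOC550643, now named NBDY, encodes a polypeptide that interacts with EDC4, a protein of mRNA decapping. The study asked whether mRNA levels differ when it is silenced. Only 1 pool and 1 control reagent were used, so loss of the target and other effects of either reagent cannot be told apart.

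Proteins that fail to fold in the ER are recognised there, moved back across the membrane, tagged with ubiquitin and destroyed by the proteasome. For glycoproteins, the EDEM proteins promote removal of mannose from the attached sugar chain, and the lectin OS9 reads the trimmed chain. SEL1L hands the protein to the membrane ubiquitin ligase SYVN1 (also called HRD1), HERPUD1 is a scaffold of that ligase complex, and the derlins are membrane proteins of the exit route. Several of these genes are known targets of the unfolded protein response, a set of signals from the ER to the nucleus that runs through the sensors ERN1 (IRE1), ATF6 and EIF2AK3 (PERK).

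Known binding elements of that response were looked for in promoter sequences from RefSeq (GRCh38.p14), each from 250 bases before to 50 bases after a start site. The table held 8 of the 10 genes, all but DERL1 and DERL3. Both strands were searched for the exact letters given below. An element with a changed base was not counted, so a count of 0 does not mean that no such element is present. The element ERSE-II (ATTGG, 1 base of any kind, CCACG) was present in HERPUD1 alone among the 8, from -117 to -107 relative to the start site, and in 0.0541% of the 35116 promoters in the table. The element ERSE (CCAAT, 9 bases of any kind, CCACG) was in 0 of the 8 and in 0.0769% of all promoters. The XBP1 element core TGACGTGG was in 0 of the 8 and in 0.729% of all promoters. The shorter words are common: CCAAT was in 6 of the 8 and in 34.6% of all, CCACG in 6 and in 38.1%, and ACGT in 7 and in 33.3%. ERSE-II contains CCACG and, on the other strand, CCAAT, so these matches overlap.

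The 200 bases before the start site are shown for 4 genes, 2 that rose (HERPUD1 and SYVN1) and 2 that fell (EDEM1 and SEL1L) after LOC550643 siRNA, so that the letters can be read beside the levels. Capitals mark CCAAT and CCACG on either strand. The stretches are chr16:56931942-56932141 on the plus strand for HERPUD1, chr11:65134520-65134719 on the minus strand for SYVN1, chr3:5187507-5187706 on the plus strand for EDEM1 and chr14:81533854-81534053 on the minus strand for SEL1L.
HERPUD1: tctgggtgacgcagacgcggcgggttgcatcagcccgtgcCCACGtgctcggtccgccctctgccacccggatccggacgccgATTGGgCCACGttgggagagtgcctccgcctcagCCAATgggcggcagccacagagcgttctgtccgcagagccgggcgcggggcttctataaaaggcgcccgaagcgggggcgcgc
SYVN1: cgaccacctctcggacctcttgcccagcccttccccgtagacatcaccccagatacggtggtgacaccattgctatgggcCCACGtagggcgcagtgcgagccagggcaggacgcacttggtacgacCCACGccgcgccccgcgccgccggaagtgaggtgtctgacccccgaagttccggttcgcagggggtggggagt
EDEM1: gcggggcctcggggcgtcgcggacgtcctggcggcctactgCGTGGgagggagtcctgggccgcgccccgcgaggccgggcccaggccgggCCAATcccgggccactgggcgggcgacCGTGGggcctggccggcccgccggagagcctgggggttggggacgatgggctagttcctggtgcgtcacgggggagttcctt
SEL1L: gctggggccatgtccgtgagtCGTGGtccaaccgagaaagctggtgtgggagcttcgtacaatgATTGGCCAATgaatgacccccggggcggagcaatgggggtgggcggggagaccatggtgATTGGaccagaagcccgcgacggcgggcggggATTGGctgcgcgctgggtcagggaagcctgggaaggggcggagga
In HERPUD1 the ERSE-II letters are the close pair of capital words, and a further CCAAT follows at -83 to -79. SYVN1 holds CCACG at -120 to -116 and at -73 to -69 and no CCAAT. EDEM1 holds 1 CCAAT, SEL1L holds several, and both also hold CCACG on the other strand. Of the genes not shown, EDEM2 also fell and held neither word in the whole stretch searched. EDEM3 and OS9 held both words and did not pass. A link between these letters and the levels was not tested.

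The libraries differed in depth and in how well replicates agreed. Assigned read pairs, inferred from the values, ran from 30739321 to 36082404 in 5 libraries and were 8604236 in LOC550643 siRNA replicate 3. Replicates differed by more than counting noise (5.23 to 39.3 for chi-square divided by its degrees of freedom). The highest values were those of control replicate 2 against the other controls, 29.5 and 39.3. The lowest, 5.23 and 5.42, were those of LOC550643 siRNA replicate 3. They do not show closer agreement, since the measure also rises with depth. Levels are given as CPM, the usual unit of counts relative to the library total, after scaling between libraries. The silenced gene itself, listed as LINC01420, averaged 52.9 ± 2.88 CPM in the controls and only 5.74 ± 0.287 CPM after its siRNA (SD, n = 3 each). All 12 markers of HEK293T cells fixed for the check were above 1 CPM on average. Of 9 fibroblast markers 3 were above 1 CPM, and they summed to 73.6 to 82.2 CPM in controls against 70.2 to 75.2 CPM after LOC550643 siRNA, most of it COL1A1, and THY1 was at 0. Of 6 blood markers 2 were above 1 CPM, with a summed level of 7.37 to 8.54 CPM against 6.00 to 6.73 CPM, and HBB was at 0. Of 7 plasma cell markers SDC1 alone was above 1 CPM, and the sums were 65.6 to 69.9 CPM against 63.9 to 79.0 CPM. The part of other cells in the results was not tested. In bulk RNA, a change in the mix of cell states and a change in RNA per cell cannot be told apart.

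All 10 genes were kept by the filter on low values. After LOC550643 siRNA, 3 of them fell (EDEM1, SEL1L and EDEM2), 2 rose (HERPUD1 and SYVN1) and 5 did not pass (limma adjusted p under 0.05 over 16245 genes). Across all genes tested, 18.1% were lower and 17.5% higher by the same rule, 35.6% in all (2843 higher and 2942 lower, or 2081 and 3976 when scaled by library totals). Read against that background, 5 of 10 is no result about the set. Their median log2 fold change was -0.08, beside -0.02 over all genes tested. Fold changes are LOC550643 siRNA over control throughout, on the log2(value + pseudocount) scale.

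**Figure D1:**
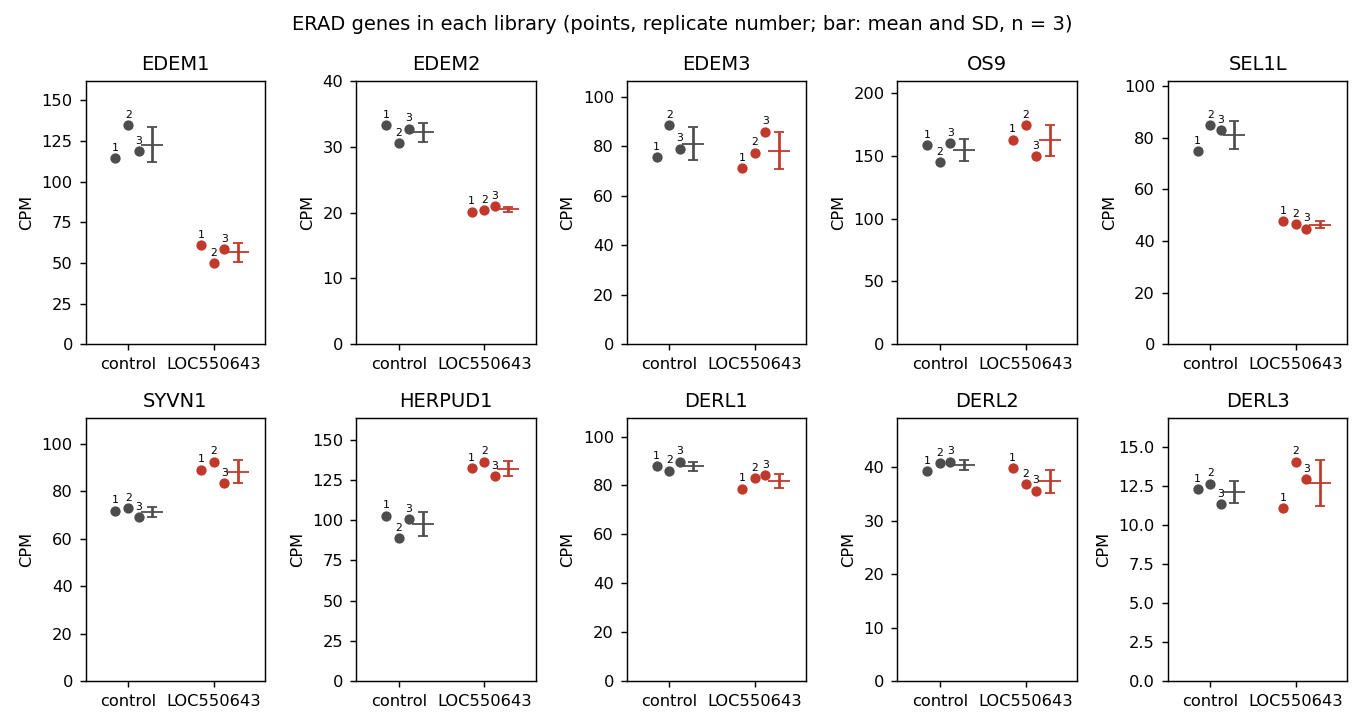
Level of each ERAD gene in CPM (vertical axis, from 0) in the 3 control and 3 LOC550643 siRNA libraries; points carry the replicate number and bars show the mean and SD. EDEM1, EDEM2, SEL1L and DERL1 are lower and HERPUD1 and SYVN1 higher in every LOC550643 siRNA library than in any control library. DERL1 does not pass, and the groups do not overlap at 48.6% of all genes tested.

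Of the 3 EDEM genes, whose products act on the sugar chains of misfolded glycoproteins, EDEM1 fell most. EDEM1 (NM_014674, plus strand of chromosome 3, 5229359 to 5261650, hg19) stood at 115, 135 and 119 CPM in control replicates 1 to 3 and at 61.1, 50.0 and 58.7 CPM in LOC550643 siRNA replicates 1 to 3. The groups were far apart, and even the highest LOC550643 siRNA library was well below the lowest control. The mean went from 122.8 ± 10.7 to 56.6 ± 5.83 CPM (SD, n = 3 each), 0.461 of control, a log2 fold change of -1.12 (SE 0.092, limma adjusted p = 1.08e-05). It was the 1 gene of the 10 past a log2 fold change of 1, and 278 of the 16245 genes tested had a lower value. The authors' deposited table lists -1.12 for EDEM1 with an adjusted p of 8.81e-24, and EDEM1 was also the 1 gene of the 10 to pass the authors' rule there, which asks for an adjusted p under 0.05 together with a log2 change beyond 1.

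EDEM2 (listed under NR_026728, minus strand of chromosome 20, 33703160 to 33735161) was a less abundant transcript that also fell. It stood at 33.4, 30.6 and 32.8 CPM in control and at 20.2, 20.4 and 21.0 CPM in LOC550643 siRNA libraries. The LOC550643 siRNA libraries lay within 1 CPM of each other and well under every control. That put EDEM2 at 0.635 of control, or -0.65 on the log2 scale (SE 0.077, limma adjusted p = 0.000103).

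EDEM3 (NM_025191, minus strand of chromosome 1, 184659625 to 184724041) did not pass. It stood at 75.7, 88.6 and 79.0 CPM in control and at 71.1, 77.4 and 85.9 CPM in LOC550643 siRNA libraries, and the groups overlapped. The log2 fold change was -0.05 with a 95% interval from -0.25 to 0.14 (limma adjusted p = 0.659), an interval that does not reach the values of EDEM1 or EDEM2. Without control replicate 2 or LOC550643 siRNA replicate 1 it was at 0.001 and 0.012, neither passing.

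OS9, the lectin that reads trimmed chains (NM_006812, plus strand of chromosome 12, 58087738 to 58115340), had the highest CPM of the 10 genes in both groups and did not pass. It stood at 159, 145 and 161 CPM in control and at 163, 175 and 150 CPM in LOC550643 siRNA libraries. These ranges overlapped, and the log2 fold change was 0.07 (95% interval -0.10 to 0.24, limma adjusted p = 0.502).

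**Figure D2:**
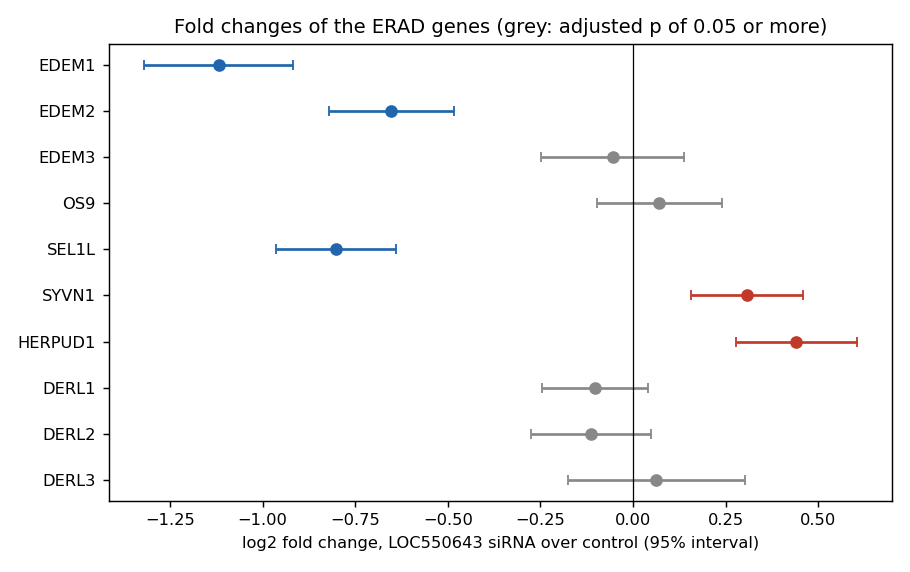
Log2 fold change of each ERAD gene (horizontal axis, LOC550643 siRNA over control), with its 95% interval from the limma fit; blue passes downward, red passes upward, grey does not pass. The intervals of EDEM1 (-1.32 to -0.92), SEL1L (-0.96 to -0.64) and EDEM2 (-0.82 to -0.48) lie below 0, and those of HERPUD1 (0.28 to 0.60) and SYVN1 (0.16 to 0.46) above it.

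Within the ligase complex the adaptor went one way and the ligase and scaffold the other. SEL1L (NM_005065, minus strand of chromosome 14, 81937891 to 82000205) stood at 74.8, 84.995 and 83.0 CPM in control and at 47.7, 46.4 and 44.8 CPM in LOC550643 siRNA libraries. No LOC550643 siRNA library came near the controls, and the 3 were close together. The mean went from 80.9 ± 5.41 to 46.3 ± 1.45 CPM (SD, n = 3 each), a log2 fold change of -0.80 (SE 0.074, limma adjusted p = 2.1e-05).

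SYVN1, the ubiquitin ligase that SEL1L serves (NM_032431, minus strand of chromosome 11, 64894751 to 64902003), rose modestly. It stood at 71.9, 73.0 and 69.2 CPM in control and at 89.2, 92.6 and 83.4 CPM in LOC550643 siRNA libraries, with no overlap. That put SYVN1 at 1.24 times control, or 0.31 on the log2 scale (SE 0.069, limma adjusted p = 0.00504). Its row overlaps MIR6751 on the same strand and, over 91 bases, MRPL49 on the opposite strand. The command in the header shows no strand option, so reads from those stretches cannot be told apart.

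HERPUD1 (NM_014685, plus strand of chromosome 16, 56966002 to 56977793) had the larger rise. It stood at 102.8, 88.8 and 100.6 CPM in control and at 132, 136 and 127 CPM in LOC550643 siRNA libraries. Every LOC550643 siRNA library was above every control, and control replicate 2 was the lowest of the 6. The mean went from 97.4 ± 7.55 to 132.0 ± 4.52 CPM (SD, n = 3 each), a log2 fold change of 0.44 (SE 0.075, limma adjusted p = 0.000993).

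The 3 derlins did not pass. DERL1 (NM_024295, minus strand of chromosome 8) stood at 87.8, 86.1 and 89.8 CPM in control and at 78.7, 83.0 and 84.1 CPM in LOC550643 siRNA libraries. Its groups did not overlap, yet the difference was small, at a log2 fold change of -0.10 (95% interval -0.24 to 0.04, limma adjusted p = 0.247). Scaled by library totals rather than by TMM, it passed at -0.18 (limma adjusted p = 0.0426). Over all 10 genes the groups did not overlap at 6, beside 48.6% of all genes tested.

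DERL2 (NM_016041, minus strand of chromosome 17, 5374571 to 5389550) stood at 39.4, 40.8 and 41.1 CPM in control and at 39.8, 36.8 and 35.7 CPM in LOC550643 siRNA libraries. The highest LOC550643 siRNA library lay within the control range, while in the deposited values before scaling the groups did not overlap. The log2 fold change was -0.11 (95% interval -0.27 to 0.05, limma adjusted p = 0.258).

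DERL3, the derlin best known from secretory cells (NM_198440, minus strand of chromosome 22, 24176690 to 24181199), was the least abundant of the 10. It stood at 12.3, 12.7 and 11.4 CPM in control and at 11.1, 14.1 and 12.9 CPM in LOC550643 siRNA libraries, and the groups overlapped. The log2 fold change was 0.06 (95% interval -0.18 to 0.30, limma adjusted p = 0.688). In LOC550643 siRNA replicate 3 its level rests on 108.5 read pairs, the fewest behind any of the 10 genes. Its row overlaps SMARCB1 on the opposite strand over 16 bases.

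Among the controls, replicate 2 agreed least with the others, so its place is given for each gene. Any 1 of 3 libraries is often the highest or lowest, and no share over all genes was computed. Some gaps were small, as for SYVN1 (73.0 against 71.9 CPM in control replicate 1). Control replicate 2 was the highest control for EDEM1, EDEM3, SEL1L, SYVN1 and DERL3 and the lowest for EDEM2, OS9, HERPUD1 and DERL1, and lay between the others for DERL2. In the fit without it, EDEM1 was at -1.06, SEL1L at -0.78, EDEM2 at -0.70, HERPUD1 at 0.37 and SYVN1 at 0.32. All 5 passed there, with limma adjusted p = 8.42e-06, 2.25e-05, 8.3e-05, 0.00147 and 0.00565.

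Since genes of the same role share each library, their ratio can be followed within libraries. The log2 ratio of EDEM1 to EDEM3 was 0.60, 0.61 and 0.59 in the control libraries and -0.22, -0.63 and -0.55 in the LOC550643 siRNA libraries. EDEM1 was thus above EDEM3 in CPM in every control and below it in every LOC550643 siRNA library. The mean log2 ratio moved by -1.06. For SEL1L over SYVN1 the log2 ratio was 0.06, 0.22 and 0.26 in control and -0.90, -0.996 and -0.90 in LOC550643 siRNA libraries, a move of -1.11. The ratio of DERL1 to DERL2 moved by 0.01 (1.12 ± 0.041 and 1.13 ± 0.133, SD, n = 3 each). An exact two-sided permutation test over 3 against 3 libraries cannot go below p = 0.1. Of the 12 pairs within roles, compared after the levels had been seen, 8 reached that value (exact p = 0.1, adjusted over the 12 pairs 0.15), and DERL1 over DERL2 stood at p = 0.9 (exact permutation). The pairs share genes. Every pair that reached it holds a gene that passed by itself, and no other pair does, so the count is not a separate result. A share over other pairs of genes was not computed.

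Divided by the transcript length listed in the table, levels can be set beside each other between genes. In control libraries OS9 (54.4 ± 3.02 CPM per kb) and HERPUD1 (50.9 ± 3.95) were highest, and their ranges overlapped. DERL1 (26.4 ± 0.550), SYVN1 (23.5 ± 0.645), EDEM1 (20.01 ± 1.74), EDEM2 (15.2 ± 0.681) and EDEM3 (12.3 ± 1.02) followed, with no overlap between neighbours. SEL1L (10.2 ± 0.685) and DERL2 (9.60 ± 0.222) overlapped, and DERL3 was lowest at 3.79 ± 0.212 CPM per kb (SD, n = 3 for each gene).

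The order was different in LOC550643 siRNA libraries. HERPUD1 came first at 69.0 ± 2.37 CPM per kb, ahead of OS9 at 57.2 ± 4.35, and SYVN1 (29.2 ± 1.54) stood above DERL1 (24.6 ± 0.859), each without overlap. EDEM3 (11.8 ± 1.13) was then the highest of the EDEM genes, and EDEM2 (9.68 ± 0.189), EDEM1 (9.22 ± 0.949) and DERL2 (8.88 ± 0.509) overlapped as neighbours. SEL1L was at 5.86 ± 0.183, between DERL2 and DERL3 (3.98 ± 0.468 CPM per kb). Each listed length is that of 1 transcript, so the use of other isoforms would shift these values.

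**Figure D3:**
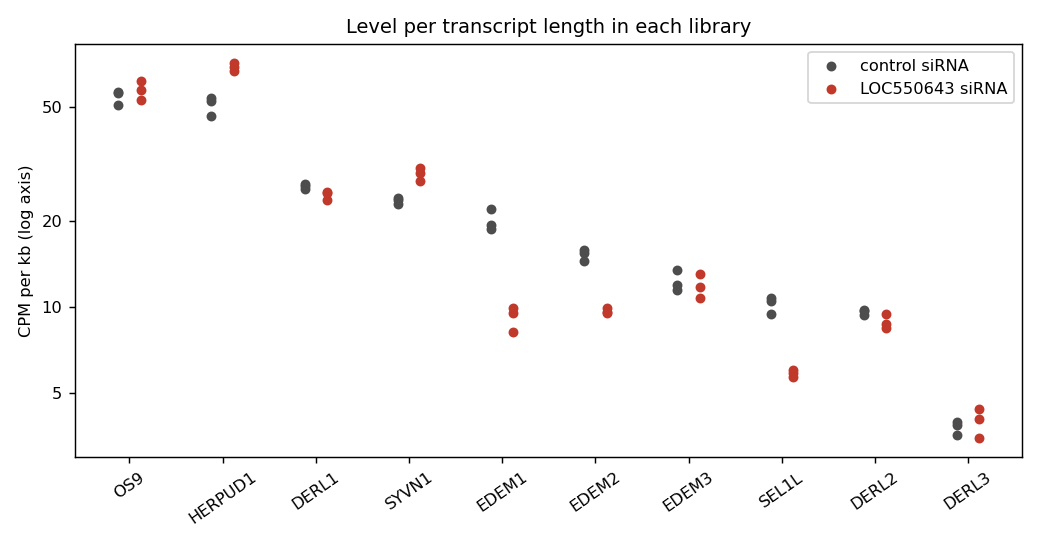
Level per transcript length in CPM per kb (vertical log axis) for each ERAD gene, ordered by the control mean; each point is 1 library. EDEM1 falls from 20.01 to 9.22 CPM per kb, from above EDEM3 to below it, while HERPUD1 rises from 50.9 to 69.0.

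Other ERAD genes, in lists that leave these 10 out, more often rose than fell. Of 77 such genes tested, 28 rose and 9 fell, while 40 did not pass (median log2 fold change 0.10), beside 17.5% higher and 18.1% lower of all genes tested. The same shares are the background for each list below, and no list was tested as a set. Of 14 other glycan and redox factors, 2 rose, 1 fell and 11 did not pass (median -0.03). The mannosidase MAN1A2 fell from 65.8 to 46.8 CPM (log2 -0.47, limma adjusted p = 0.0102, and log2 -0.33 without control replicate 2). Its relative MAN1C1 rose by 0.33 (limma adjusted p = 0.00969) and FOXRED2, an ERAD flavoprotein, by 0.28 (0.0104). The MAN1C1 call was lost after thinning (adjusted p = 0.066).

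Among 32 other ligases and membrane partners, 12 rose, 3 fell and 17 did not pass (median 0.12). ERLIN1 and ERLIN2, which form a complex in the ER membrane that takes part in ERAD, rose from 72.8 to 120.5 CPM (log2 0.73) and from 64.5 to 111.2 CPM (0.79). INSIG1, a sterol sensor that brings a ligase to its substrate, rose from 115.5 to 214.1 CPM (0.88). The ER ligases RNF185 (log2 -0.65), TRIM13 (-0.52) and RNF121 (-0.21, limma adjusted p = 0.039) fell. The call of RNF121 was lost in each fit that left out a library (limma adjusted p 0.0611 without control replicate 1, 0.0656 without 2 and 0.109 without 3, and 0.0944, 0.0706 and 0.0769 without LOC550643 siRNA replicates 1, 2 and 3).

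VCP, the ATPase that pulls ERAD substrates from the membrane, went from 189.1 to 251.8 CPM, a rise of 0.41 on the log2 scale (limma adjusted p = 0.00139). Of 13 genes of its machinery 4 rose, 0 fell and 9 did not pass (median 0.11), beside 35.6% of all genes called in either direction. UBXN6, a VCP cofactor, rose by 0.38. FAF1, another, rose by 0.29 (limma adjusted p = 0.0311), a call lost when control replicate 1 (0.0602), control replicate 2 (0.0922), LOC550643 siRNA replicate 1 (0.118) or LOC550643 siRNA replicate 2 (0.0671) was left out, with library totals alone (0.0945), with upper-quartile scaling (0.0566) and with no filter (0.0512).

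The step after extraction moved in both directions. Of 18 factors that hand substrates to the proteasome, 10 rose, 5 fell and 3 did not pass (median 0.25). RAD23B, a ubiquitin receptor that shuttles to the proteasome, rose by 0.49 on the log2 scale and the ligase STUB1 (CHIP) by 0.44. The deubiquitinase YOD1 fell by 0.57 on the log2 scale, and stood at -0.47 without control replicate 2. The shuttle factor UBQLN4 fell by 0.48 and UBE4A by 0.26 (limma adjusted p = 0.0157). The UBE4A call was lost without LOC550643 siRNA replicate 2 (adjusted p = 0.0579) and after thinning every library to the depth of the shallowest (0.0703).

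Among the sensors and transcription factors of the unfolded protein response, 4 of 13 rose and the other 9 did not pass (median 0.16), beside 35.6% of all genes called in either direction. DDIT3 (CHOP) rose from 44.02 to 74.5 CPM (log2 0.77, and 0.61 without control replicate 2). CREB3 (0.68), CREB3L1 (0.49) and ATF6 (0.38, limma adjusted p = 0.0021) rose with it. XBP1 was at 0.16 (limma adjusted p = 0.122), ERN1 at -0.15 (0.407), EIF2AK3 at -0.19 (0.079) and ATF4 at -0.06 (0.638), none of which passed. EIF2AK3 passed with library totals alone (-0.27, adjusted p = 0.0179), with upper-quartile scaling (-0.22, 0.0445), with the length trend removed (-0.19, 0.0366) and with GC and length trends removed (-0.20, 0.0263). XBP1 passed with the length trend removed (0.16, 0.0459) and with GC and length trends removed (0.16, 0.0446). These are gene totals, and the spliced form of XBP1 was not analysed here.

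Of 28 ER chaperones and other targets of XBP1 and ATF6, 13 rose, 2 fell and 13 did not pass (median 0.19). The shares over all genes tested were 17.5% higher and 18.1% lower. HSPA5 (BiP), the main ER chaperone, rose from 721.1 to 1029 CPM (log2 0.51), the lectin chaperone CALR from 502.0 to 946.1 CPM (0.91), and SIL1 (0.56) and the oxidase ERO1A (0.51) rose as well. HYOU1 (-0.28) and ERO1B (-0.29) fell, and the ERO1B call was lost without LOC550643 siRNA replicate 3 (limma adjusted p = 0.0601). EDEM1 at -1.12, SEL1L at -0.80 and EDEM2 at -0.65 lay below the lowest gene of these 28 (-0.29) and of the 13 sensors and factors (-0.19). HERPUD1 at 0.44 and SYVN1 at 0.31 lay inside the range of both lists. Among the 77 other ERAD genes the lowest was RNF185 at -0.65, near EDEM2. Whether the 10 genes differ from any of these lists was not tested.

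**Figure D4:**
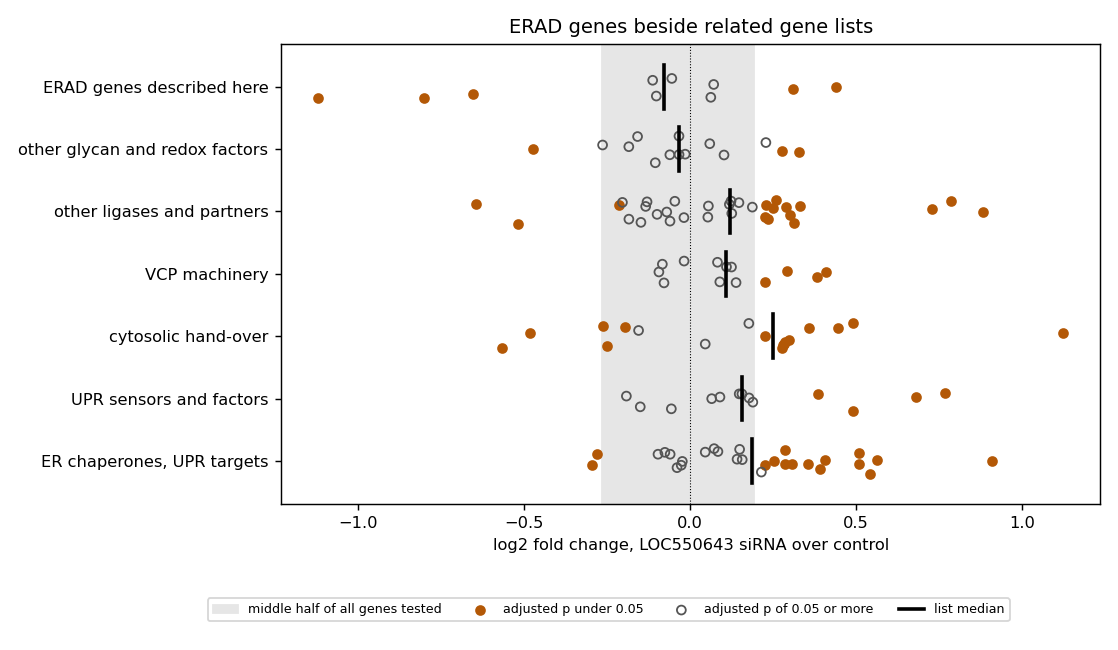
Log2 fold change of the 10 ERAD genes and of the genes of 6 related lists (1 row per list; filled points pass, open points do not; black bars are list medians; the grey band runs from the lower to the upper quartile of all genes tested, -0.27 to 0.19). EDEM1 and SEL1L are the 2 points farthest to the left.

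The calls of the 5 genes did not rest on 1 library or 1 setting among those tried. With each library left out in turn, EDEM1 stayed between -1.18 and -1.03, SEL1L between -0.86 and -0.78, EDEM2 between -0.70 and -0.63, HERPUD1 between 0.37 and 0.48 and SYVN1 between 0.28 and 0.35. The highest limma adjusted p in those fits was 0.0278, for SYVN1.

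**Figure D5:**
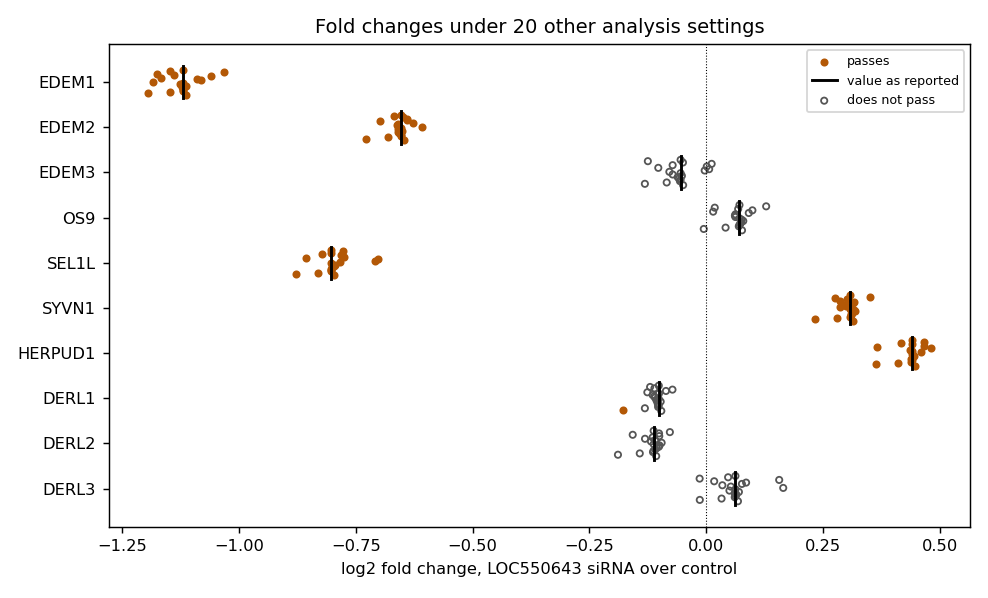
Log2 fold change of each ERAD gene (horizontal axis) under 20 other settings (points; filled where the gene passes, open where it does not) beside the value as reported (black bar). EDEM1, EDEM2, SEL1L, SYVN1 and HERPUD1 pass under each of the 20, and DERL1 passes under 1.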

How the data were processed

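Poly-A selected dUTP libraries were sequenced from both ends at 75 bases. CASAVA 1.8.2 made the read files and STAR 2.4.0k placed them on hg19, per the labels' protocols. HOMER then counted exon reads and merged transcripts into genes, per the file headers; per the labels' protocols, the authors tested with edgeR 3.6.8. The deposited per-library values are a signal: coverage per gene, scaled to nearly equal library sums (29401170 to 29401184). Within 0.1 step, 100% of low values were whole multiples of 1 step per library, taken as 1 read end. The log2 and p-value columns that the authors deposited for their comparison were only set beside the values computed here.

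The main test was limma 3.58.1 (eBayes with trend = TRUE, two-sided tests) on log2(value + 1 deposited unit, or 0.034 CPM) after TMM scaling with edgeR 4.0.16, in R 4.3.3. Genes were kept by edgeR's filter at 10 read pairs, which left 16245, with Benjamini-Hochberg adjustment over all of them. The unit was thus tested on a log scale, and edgeR and DESeq2 1.42.0 on recovered reads (whole within 0.1 step for 100% of low values) were alternatives; edgeR called 2859 genes higher and 2992 lower on read ends. The procedure was also run on simulated reads with the same scatter set for every gene. That setting differs from these libraries, so the run is no support for the calls. Whether the replicates were separate cultures is not given in the sources used here, so a p-value reflects only the variation among these libraries, possibly technical. The genes, the related lists and the tests were chosen with earlier results of these data known. Named besides the 10 genes were up to 3 called genes per list and direction with the smallest p, and 8 stress genes whatever their p. A gene that this rule selects is not reported here. Other scalings, filters and fits are given in the closing section.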

Additional observations from a re-analysis of the deposited data

How the results depend on the processing

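EDEM1, EDEM2, SEL1L, SYVN1 and HERPUD1 kept their direction and passed under all 20 alternatives, 2 of them chosen after seeing the data (edgeR on read pairs, and removal of trends with GC content and length, for which 90.4% of genes had a GC value). Over these, EDEM1 ran from -1.20 to -1.03, EDEM2 from -0.73 to -0.61, SEL1L from -0.88 to -0.70, HERPUD1 from 0.36 to 0.48 and SYVN1 from 0.23 to 0.35. DERL1 passed with library totals alone (-0.178, adjusted p = 0.0426), which brought the genes that fell to 4. Genes that did not pass changed sign: OS9 (-0.0053) and DERL3 (-0.0138) with library totals, EDEM3 with GC and length trends removed (0.0062), without control replicate 2 (0.0011) and without LOC550643 siRNA replicate 1 (0.0116), and DERL3 without LOC550643 siRNA replicate 2 (-0.0141, against up to 0.156 with another library left out). At an adjusted p under 0.01, 1775 genes were higher and 1743 lower, against 2843 and 2942 at 0.05. With 1 library left out, 2059 to 2654 were higher and 2210 to 2854 lower. With the length trend removed, 3628 were higher and 3337 lower, so the background share of genes called was larger there. With library totals, 34.4% of called genes were higher instead of 49.1% (2081 higher, 3976 lower), and the median of all genes was -0.09.

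With the replicate number as a block, 2689 genes were higher and 2707 lower, and none of the 10 genes changed its call; RNF121 did (adjusted p = 0.0552). Whether same-numbered libraries belong together is not stated in the labels. Their deviations from the group means correlated at 0.06, -0.28 and -0.12, and those of differently numbered libraries at -0.14 to 0.25. With 3 libraries per group, deviations from a mean depend on each other, so these correlations cannot settle the pairing. Depth limits LOC550643 siRNA replicate 3 most, and after thinning every library to its depth the calls of the 10 genes did not change.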
